A study of Mus musculus with 16 samples.

Results

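The genes described are 37 that respond to interferon or serve antigen presentation by major histocompatibility complex (MHC) class I molecules, taken by name from a table of 49585 genes. All 37 names were found in the table. Expression was measured by RNA-seq in inner hair cells (IHCs) and outer hair cells (OHCs), the sensory receptor cells of the organ of Corti, from CBA mice (CBA/J) of both sexes at 9 and 26 months of age. The 16 libraries carry 4 labels, 9m_IHC, 26m_IHC, 9m_OHC and 26m_OHC, with 4 libraries each. None of the groups was treated or carried an engineered allele, and about 1000 cells per library were picked by shape with a pipette after collagenase digestion, so that each library pools cells of several mice and may hold RNA of neighbouring cells. Values are RPKM, mapped reads scaled by the gene's length and by the library's depth. A group mean of 0.1 RPKM is taken as background.

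Interferons are secreted proteins made by cells that sense viral nucleic acid or other danger. They bind receptors that act through JAK kinases, and the type I and III forms lead to a complex holding STAT2 and IRF9 that binds interferon-stimulated response elements (ISREs) in the promoters of antiviral genes, while interferon-γ acts mainly at gamma-activated sites. The same signals raise MHC class I, which displays peptides of a cell's own proteins to cytotoxic T cells. Most cells hold some of these transcripts without infection, and resident macrophages of the cochlea are among the cells known to use this pathway.

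Promoter sequence was available from RefSeq (GRCm38.p6) for 29 of the 37 genes. The core of the ISRE was searched as GAAANNGAAA, which on the other strand reads TTTCNNTTTC, within the 250 bases before the start. It was present in 13 of 29 genes, or 44.8%, against 3.46% of all 27025 genes with an entry. The gamma-activated site, TTCNNNGAA on both strands, was found in 5 of the 29 (17.2%, against 8.13% of all genes). All 4 interferon-inducible GTPase genes and 6 of 13 antiviral effector genes with an entry held the ISRE core. Among the 5 MHC class I and peptide loading genes with an entry only *B2m* did. A match describes the letters of a window and is no evidence that a factor was bound. The 160 bases before the RefSeq start are shown for 6 genes on which the results below turn, with ISRE cores in capitals. For *Ifit1* and *Gbp2* the gene starts given with the RPKM values, 34640871 and 142620602, fall inside the window. That of *B2m*, 122147686, is the last base of its window. The *Gbp2* core lies past the *Gbp2* start, within the gene as annotated there. The *Ifit1* and *Ifit3* windows stand first because these neighbouring genes took opposite courses in the same libraries, although each window holds 2 cores.

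*Ifit1* (chr19:34640729-34640888, + strand): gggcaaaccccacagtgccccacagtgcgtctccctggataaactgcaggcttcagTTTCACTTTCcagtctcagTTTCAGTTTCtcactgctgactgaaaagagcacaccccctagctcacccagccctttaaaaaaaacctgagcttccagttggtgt
*Ifit3* (chr19:34583369-34583528, + strand): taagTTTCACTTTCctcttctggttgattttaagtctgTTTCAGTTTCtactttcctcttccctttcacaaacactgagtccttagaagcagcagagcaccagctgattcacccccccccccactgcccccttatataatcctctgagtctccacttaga
*Rsad2* (chr12:26456453-26456612, - strand): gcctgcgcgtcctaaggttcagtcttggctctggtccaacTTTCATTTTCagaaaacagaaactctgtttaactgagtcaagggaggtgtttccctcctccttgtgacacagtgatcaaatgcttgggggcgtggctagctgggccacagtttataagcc
*Isg15* (chr4:156200819-156200978, - strand): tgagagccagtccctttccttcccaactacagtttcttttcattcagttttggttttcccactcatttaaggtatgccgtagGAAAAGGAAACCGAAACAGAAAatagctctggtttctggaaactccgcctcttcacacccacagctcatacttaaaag
*B2m* (chr2:122147527-122147686, + strand): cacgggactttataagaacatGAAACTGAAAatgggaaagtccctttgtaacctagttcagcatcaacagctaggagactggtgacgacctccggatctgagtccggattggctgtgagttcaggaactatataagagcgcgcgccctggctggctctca
*Gbp2* (chr3:142620503-142620662, + strand): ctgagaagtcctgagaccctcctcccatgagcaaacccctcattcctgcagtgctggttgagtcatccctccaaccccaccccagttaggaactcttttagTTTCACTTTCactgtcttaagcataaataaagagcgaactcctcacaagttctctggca

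The labels were set against marker genes before anything else. Libraries labelled 26m_IHC held the highest levels of the OHC markers, with prestin (*Slc26a5*) at 812 to 821 RPKM against 0.131 to 2.06 RPKM in the other 12 libraries, and the lowest of *Otof*, an IHC synaptic gene, at 23.1 to 24.0 RPKM. Groups are therefore called the libraries labelled with their name throughout. If the labels 26m_IHC and 9m_OHC were exchanged, the comparison of 9m_OHC with 9m_IHC would be the age comparison of IHCs. That of 26m_OHC with 26m_IHC would be the age comparison of OHCs. When 1 RPKM was added before taking logs, the former comparison called 1606 genes up and 4696 down. The latter called 3041 up and 3369 down. Both pairs are nearly identical to the totals in the paper for aging IHCs and aging OHCs. By the labels as given, the age comparisons called 892 up and 1394 down for IHC, and 3141 and 1056 for OHC. The age totals of the paper thus match the exchanged labels, not the labels as given. Under that exchange, a gene that sets both groups labelled OHC apart from both labelled IHC would differ by age instead of cell type. This holds below for *Stat2*, *Parp14*, *Tapbp*, *Ifnk* and *Cd74*, among others. The comparison of 26m_OHC with 9m_IHC, added after the data were seen, leaves both doubted groups out, but in it age and cell type change together. Mapped reads recovered from the RPKM steps ran from 19666190 to 31243721 per library. Libraries 1 and 2, and 3 and 4, of each group differed by less than or about the sampling noise and were counted as 1 sample each, so n = 2 per group and p-values measure only the spread between these samples, which may be technical.

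Markers of other cells differed between the groups as well. The summed RPKM of 13 macrophage markers was 2.95 to 3.44 in libraries labelled 9m_IHC, 52.3 to 55.5 in 26m_IHC, 0.158 to 0.424 in 9m_OHC and 1016 to 1048 in 26m_OHC. In libraries labelled 9m_OHC 10 of the 13 were listed at 0, among them *Csf1r*, *Adgre1* and *Ptprc*, and in 9m_IHC 4 were, *Csf1r*, *Aif1*, *Cx3cr1* and *Adgre1*. In 26m_OHC none was at 0 and 12 reached background. Libraries labelled 26m_IHC alone held eosinophil markers above background (384.5 to 402 summed RPKM for 4 genes, at most 0.119 elsewhere) and had the highest erythroid sum (5920 to 6149). Neutrophil markers (6 genes) were also highest in 26m_IHC, at 52.3 to 59.5 summed RPKM against at most 4.41 elsewhere. Neuronal markers (5 genes) were highest in 26m_OHC, at 701 to 717 summed RPKM against 29.6 to 195 in the other groups. Supporting cell markers (5 genes) were highest in 9m_IHC, at 1076 to 1084 summed RPKM against 233 to 387 elsewhere. The part of these cells in the results below was not tested, and in such bulk libraries fewer cells of a type and less RNA per cell cannot be told apart.

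**Figure D1:**
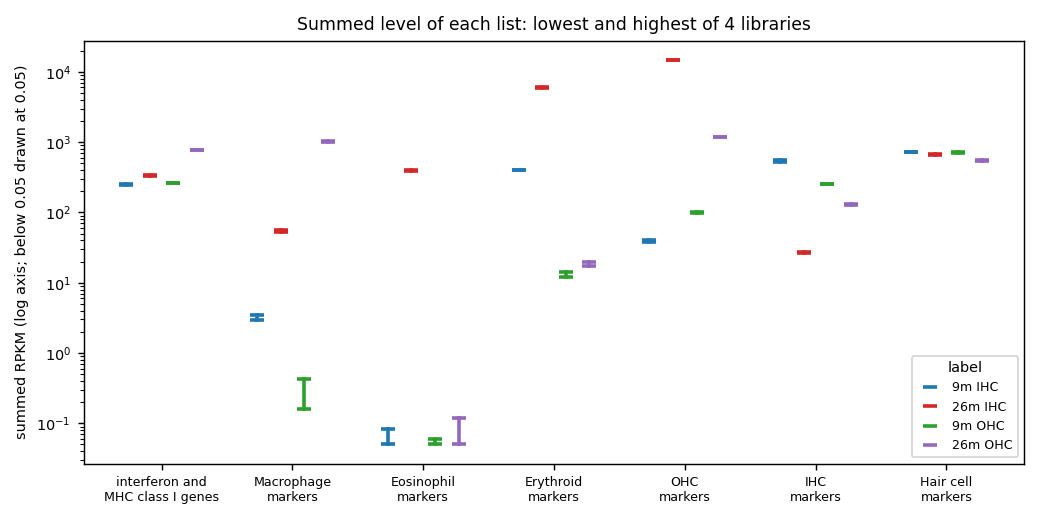
Summed RPKM (log axis) of the 37 interferon and MHC class I genes and of marker lists, as the lowest and highest of the 4 libraries of each label; values below 0.05 are drawn at 0.05. The gene set and the macrophage markers are both highest in libraries labelled 26m_OHC (767 to 785 and 1016 to 1048 summed RPKM), and the OHC markers in those labelled 26m_IHC.

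Taken as a set, the transcripts were most abundant in libraries labelled 26m_OHC. Of the 36 genes with a read in any library 22 had their highest group mean there (61.1%), 8 in 26m_IHC, 5 in 9m_IHC and 1, *Parp14*, in 9m_OHC. The 22 are among the 34 of the set with a group mean at background or above. Of all 17056 genes with such a mean, 27.2% were highest in 26m_OHC. The summed level of the set was 249 to 251.8 RPKM in libraries labelled 9m_IHC, 334 to 339 in 26m_IHC, 261 to 264 in 9m_OHC and 767 to 785 in 26m_OHC. *B2m*, *Ifitm3* and *Ifi27* carried most of the sum in 26m_OHC. The median over the 37 genes was 0.994 RPKM in 9m_IHC, 0.648 in 26m_IHC, 0.791 in 9m_OHC and 3.73 in 26m_OHC. In all, 21 genes reached background in all 4 groups. Libraries labelled 9m_OHC listed 12 of the 37 at 0, against 3, 2 and 5 in 9m_IHC, 26m_IHC and 26m_OHC. *Myd88*, an adaptor used by most cell types, was also at 0 there, so a 0 is reported only as listed and no fold is given against it. *Mx1*, *Oas2* and *Oas3* stayed below background in all groups.

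**Figure D2:**
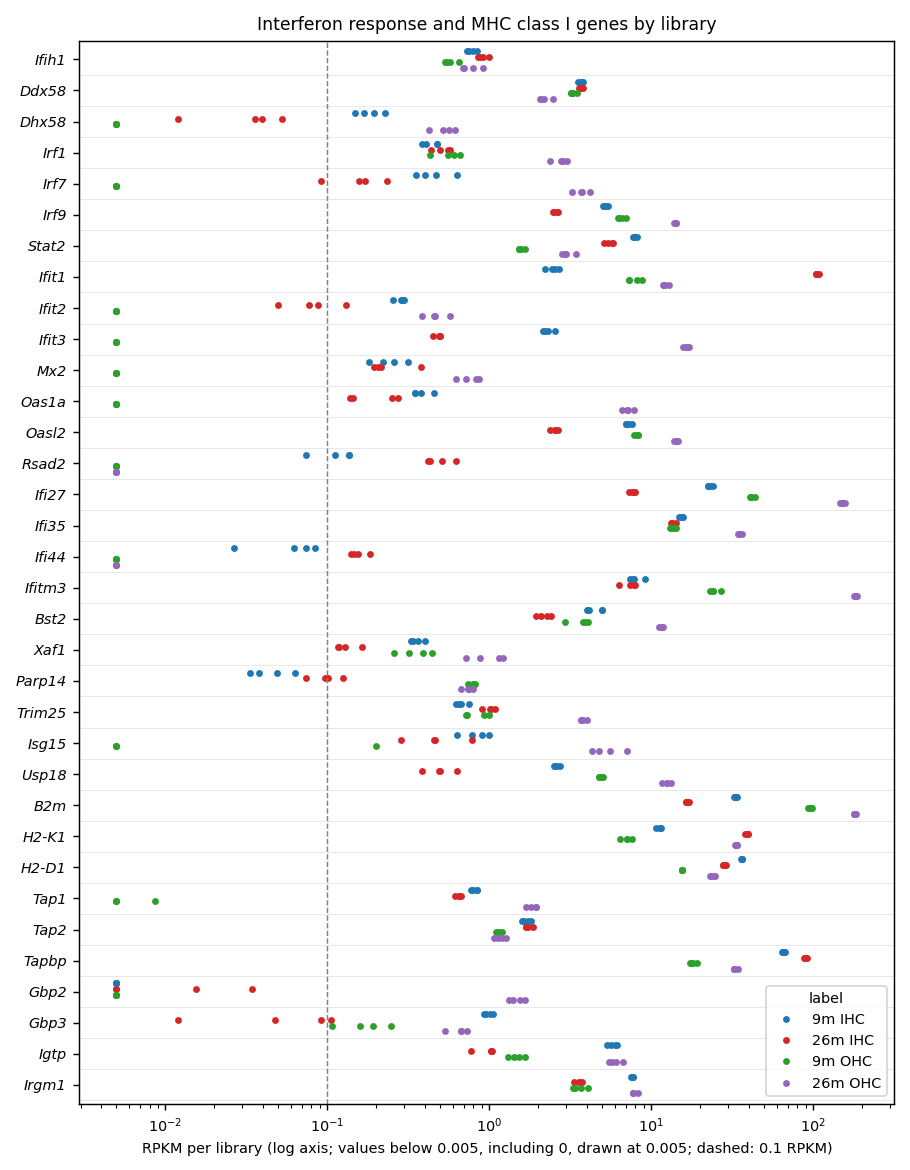
RPKM in each library (log axis) of the 34 genes that reached 0.1 RPKM in a library, with 1 point per library and 1 colour per label; values below 0.005, 0 included, are drawn at 0.005. Points of 26m_OHC lie to the right for most genes, those of 26m_IHC for *Ifit1*, *Rsad2*, *H2-K1* and *Tapbp*, and those of 9m_OHC at 0 for 12 of all 37 genes.

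The age comparison asks what changed between 9 and 26 months within a labelled cell type. Calls are limma's, on the log2(RPKM + 0.1) scale, which understates the change of low genes. They ask for a p of at most 0.1 after Benjamini-Hochberg adjustment over all genes tested, together with a log2 difference whose size is at least 1. In libraries labelled IHC few of the set rose with labelled age: 3 of the 32 tested were higher at 26 months and 11 lower (of all genes 14.1% were higher and 18.6% lower), with a median log2 fold change of -0.60 against -0.09 over all genes. The 3 that rose were *Ifit1*, *H2-K1* and *Rsad2*. In libraries labelled OHC 22 of 32 were higher and 0 lower, against 35.6% and 14% of all genes, with a median of 1.54 against 0.45. A gene was tested if it reached background in at least 1 of the groups compared, here and in the other comparisons. *Dhx58*, *Irf7*, *Ifit2*, *Ifit3*, *Mx2*, *Oas1a*, *Isg15*, *Tap1* and *Gbp2* did so only in 26m_OHC. These could be called higher but not lower, so the count leans that way by construction. All 12 macrophage markers tested were higher in the same comparison, with 1 of the list at background in 9m_OHC, and their part in the count was not tested. Among genes not called, *Ddx58* had a fold change of -0.56 ± 0.05 (SE), the 1 lower gene with an unadjusted p under 0.05. The median of all genes in this comparison moved to 0.05 with median ratio scaling and to -0.02 with quantile normalization, and the share of higher among all called genes from 71.8% to 58.5% and 52.2%. Then 17 of the set were higher under each.

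The cell type comparison asks how the labels OHC and IHC differ at each age. At 9 months 4 of 32 genes were higher and 15 lower in libraries labelled OHC (17.3% and 48.5% of all genes). The share of lower genes in the set, 15 of 32, was near that background. The median of the set was -0.60 against -0.93 over all genes. With median ratio scaling or quantile normalization it was 0.15, against -0.20 for all genes, so its direction depends on the scaling, and the share of higher among all called genes went from 26.3% to 43.9% and 45.5%. At 26 months 24 of 34 were higher and 4 lower in libraries labelled OHC, against 29% and 34.4% of all genes, with medians of 2.15 and -0.20. Between the groups whose labels were not in doubt, 26m_OHC and 9m_IHC, 21 of 33 were higher and 2 lower, against 26.3% and 35.6%, with medians of 1.32 and -0.33. These comparisons share groups, so their counts are not independent. The interaction, the difference between the age effects under the labels OHC and IHC, was called higher for 24 of 34 genes and lower for 2, against 38.4% and 18.1% of 17056 genes. Among all called genes the share of higher interactions was 68.0%, and 52.2% and 50.2% under the other scalings. The 2 lower interactions became 3 and 6 under these scalings (median ratio first), and 21 were higher under each.

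**Figure D3:**
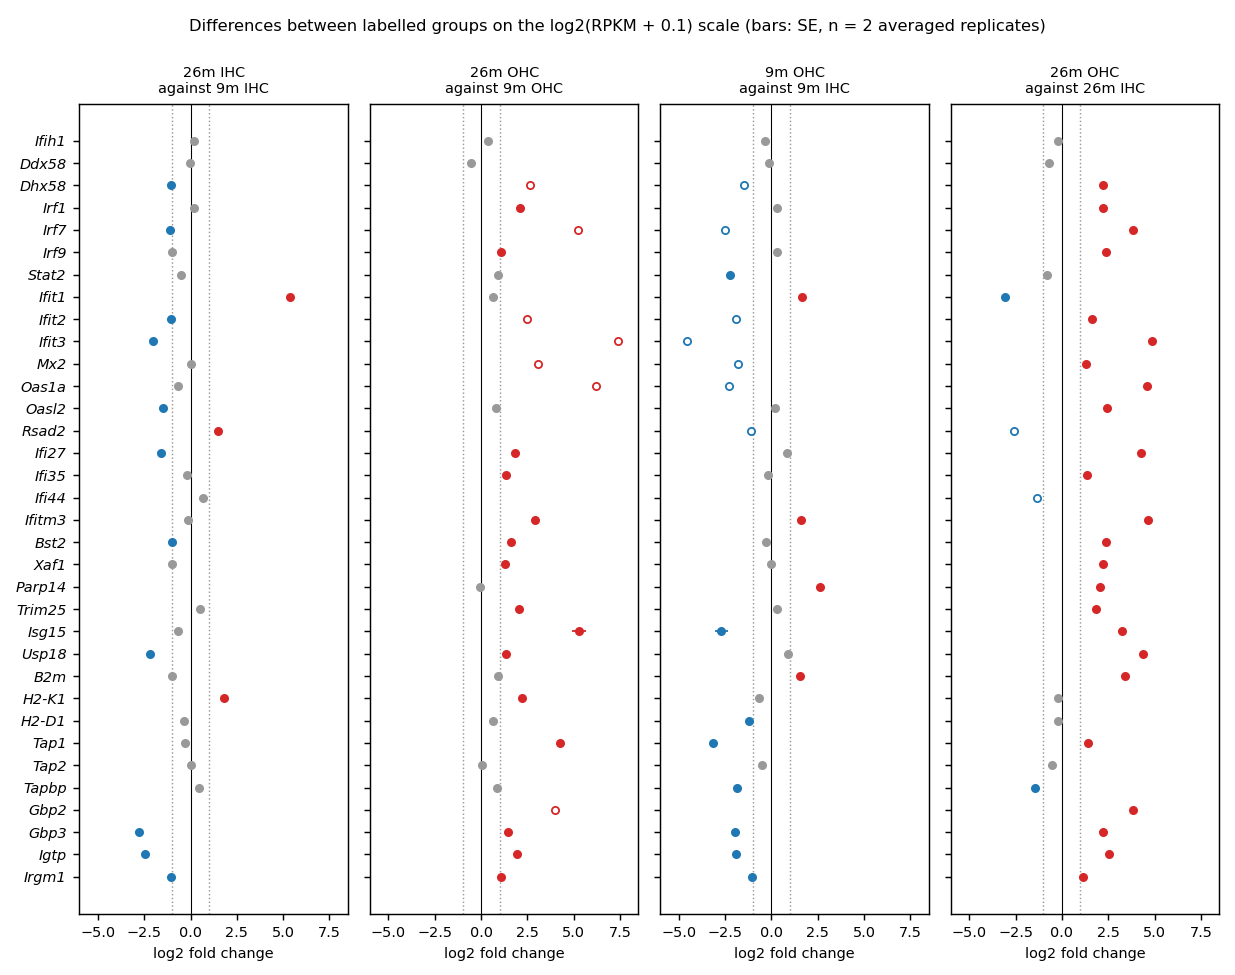
Log2 fold change ± SE (limma, n = 2 averaged replicates per group) of each gene in 4 comparisons, with called higher in red, called lower in blue and not called in grey; dotted lines mark 1 and -1, and open circles mark comparisons with a group listed at 0, whose fitted value is no bound. Red points prevail in the 26m_OHC panels (22 and 24 called higher). Blue points outnumber red ones in the 26m_IHC against 9m_IHC panel (11 called lower, 18 not called) and in the 9m_OHC against 9m_IHC panel (15 called lower).

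The cytoplasmic sensors of viral RNA were close to level, apart from the scarcest. *Ddx58*, which encodes RIG-I, was at 3.56, 3.78, 3.74 and 3.67 RPKM in libraries labelled 9m_IHC, 3.67, 3.57, 3.62 and 3.81 in 26m_IHC, 3.20, 3.28, 3.51 and 3.19 in 9m_OHC and 2.46, 2.06, 2.19 and 2.09 in 26m_OHC. It was lowest in 26m_OHC, without overlap, but under the fold asked (log2 fold change -0.71 ± 0.05 against 26m_IHC). *Ifih1*, encoding MDA5, lay between 0.534 and 1.0 RPKM in all 16 libraries: 0.730, 0.753, 0.837 and 0.792 in 9m_IHC, 0.913, 0.851, 1.0 and 0.875 in 26m_IHC, 0.534, 0.577, 0.548 and 0.651 in 9m_OHC and 0.686, 0.704, 0.796 and 0.917 in 26m_OHC. Its groups lay close together and none of its comparisons was called. *Dhx58*, encoding LGP2, which modulates the other sensors, was called higher in 26m_OHC than in every other group, at 0.427 to 0.614 RPKM against 0.148 to 0.228 in 9m_IHC, 0.0121 to 0.0526 in 26m_IHC (11 reads in all) and 0 in 9m_OHC. Their mean levels in 26m_OHC thus ran from 0.531 RPKM for *Dhx58* to 2.20 RPKM for *Ddx58*.

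Transcription factors of the pathway split by kind. *Irf9*, a DNA-binding subunit of the complex that binds the ISRE, was at 5.13, 5.05, 5.27 and 5.43 RPKM in 9m_IHC, 2.68, 2.51, 2.49 and 2.62 in 26m_IHC, 6.21, 6.38, 6.96 and 6.57 in 9m_OHC and 14.2, 14.0, 13.8 and 14.2 in 26m_OHC. It was higher in 26m_OHC than in 9m_OHC by 1.09 ± 0.04 and than in 26m_IHC by 2.40 ± 0.03 on the log2 scale (limma adjusted p 2.3e-05 and 5.7e-07), the former call being lost under both other scalings. Its partner *Stat2* had another order: 7.69, 8.23, 7.87 and 7.99 RPKM in 9m_IHC, 5.78, 5.72, 5.40 and 5.11 in 26m_IHC, 1.68, 1.57, 1.53 and 1.53 in 9m_OHC and 2.96, 3.0, 2.83 and 3.43 in 26m_OHC. Both groups labelled OHC lay below both labelled IHC, and the difference at 9 months was called (-2.26 ± 0.05, a ratio of means of 5.05). *Irf7*, which amplifies the type I response, was at 3.25 to 4.22 RPKM in 26m_OHC, 0.354 to 0.636 in 9m_IHC, 0.0914 to 0.233 in 26m_IHC and 0 in 9m_OHC. *Irf1*, an activator used by interferon-γ, stood at 2.37 to 3.02 RPKM in 26m_OHC and at 0.383 to 0.665 in the other 12 libraries, whose groups overlapped. Thus 3 of the 4 factors were called higher in 26m_OHC than in 9m_OHC, all but *Stat2* (0.91 ± 0.06), against 35.6% of all genes.

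Antiviral effectors gave the widest range of patterns among the roles. *Ifitm3*, a membrane protein that blocks viral entry, was at 7.46, 7.88, 7.78 and 9.23 RPKM in 9m_IHC, 7.79, 8.0, 6.30 and 7.42 in 26m_IHC, 24.1, 27.1, 24.3 and 23.2 in 9m_OHC and 185, 188, 180.0 and 182 in 26m_OHC. The 2 groups labelled IHC overlapped, and the levels in 26m_OHC stood 7.45-fold above 9m_OHC and 24.9-fold above 26m_IHC in group means (log2 2.89 ± 0.04 and 4.62 ± 0.07). *Ifi27*, a small interferon-induced membrane protein gene, had 26m_IHC as its lowest group, with 22.5, 23.2, 24.0 and 22.4 RPKM in 9m_IHC, 7.93, 7.58, 7.83 and 7.36 in 26m_IHC, 44.2, 41.3, 41.4 and 40.6 in 9m_OHC and 158, 152, 147 and 150.2 in 26m_OHC. No 2 of its groups overlapped. The ratio of means was 3.62 between 26m_OHC and 9m_OHC and 19.8 between 26m_OHC and 26m_IHC.

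*Ifit1* went against this order. The gene (GRCm38, chromosome 19, 34640871 to 34650009, + strand) encodes a protein that binds viral RNA lacking the host's cap modification. Its RPKM was 2.22, 2.43, 2.55 and 2.71 in 9m_IHC, 104, 104, 108 and 106 in 26m_IHC, 7.32, 7.36, 8.84 and 8.21 in 9m_OHC and 12.1, 11.8, 12.9 and 12.2 in 26m_OHC. The 4 libraries labelled 26m_IHC stood far above all others, 42.6-fold above 9m_IHC (log2 5.36 ± 0.06, adjusted p 2.1e-07) and 8.62-fold above 26m_OHC. Between 26m_OHC and 9m_OHC the difference was under the fold asked (0.63 ± 0.08). *Ifit3*, its neighbour (chromosome 19, 34583531 to 34588731, + strand) whose human counterpart binds IFIT1, was at 2.56, 2.31, 2.23 and 2.14 RPKM in 9m_IHC, 0.497, 0.447, 0.495 and 0.493 in 26m_IHC, 0 in all 4 libraries of 9m_OHC and 16.6, 15.8, 16.5 and 17.3 in 26m_OHC. Here 26m_IHC was below 9m_IHC (log2 -2.05 ± 0.08) and 34.2-fold below 26m_OHC, where *Ifit1* was above both. *Ifit2*, the third of these neighbours, was at 0.384 to 0.573 RPKM in 26m_OHC, 0.255 to 0.297 in 9m_IHC, 0.0497 to 0.131 in 26m_IHC and 0 in 9m_OHC. Of the windows of *Ifit3* 40.3% recur in *Ifit3b*, so its reads are uncertain, while 5.8% of those of *Ifit1* recur elsewhere. The libraries labelled 26m_IHC, where *Ifit1* was high, were also those with eosinophil and the most neutrophil and erythroid transcripts, whose part was not tested.

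**Figure D4:**
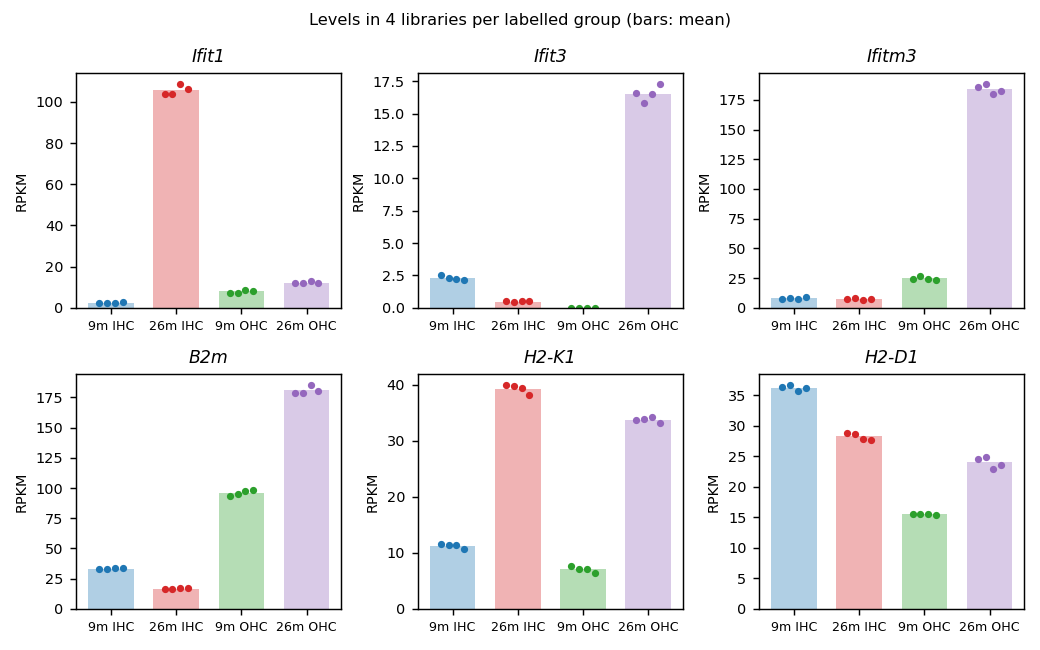
RPKM of 6 genes in each library (points) and as group means (bars), by label. *Ifit1* stands at 104 to 108 RPKM in libraries labelled 26m_IHC alone, *Ifit3* and *Ifitm3* are highest in 26m_OHC, *H2-K1* is high in both groups labelled 26 months, and *H2-D1* is highest in 9m_IHC.

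*Rsad2*, encoding viperin, an enzyme that makes a chain-terminating nucleotide against viral replication, shared the bias of *Ifit1* at a far lower level. It was at 0.112, 0.0740, 0.136 and 0.136 RPKM in 9m_IHC, 0.629, 0.433, 0.509 and 0.418 in 26m_IHC and 0 in all 8 libraries labelled OHC. Its rise in 26m_IHC was 1.48 ± 0.14 on the log2 scale. *Ifi44* was likewise at most 0.183 RPKM, in 26m_IHC, and listed at 0 in both groups labelled OHC. *Oas1a*, a synthase of the 2'-5' oligoadenylates that activate RNase L, was at 0.378, 0.458, 0.35 and 0.348 RPKM in 9m_IHC, 0.251, 0.145, 0.137 and 0.274 in 26m_IHC, 0 in 9m_OHC and 7.85, 7.12, 6.61 and 7.23 in 26m_OHC. The level in 26m_OHC was 18.8-fold that of 9m_IHC and 35.7-fold that of 26m_IHC. *Oas1a* shares 47.9% of its sequence windows with *Oas1g*, so these reads are uncertain. *Parp14*, an ADP-ribosyltransferase, was the only gene with its highest mean in 9m_OHC, at 0.0487, 0.0378, 0.0634 and 0.0334 RPKM in 9m_IHC, 0.0975, 0.101, 0.125 and 0.0740 in 26m_IHC, 0.818, 0.746, 0.792 and 0.808 in 9m_OHC and 0.756, 0.80, 0.672 and 0.746 in 26m_OHC. Both groups labelled OHC lay above both labelled IHC and overlapped each other (26m_OHC against 9m_OHC, -0.08 ± 0.07).

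Most other effectors were highest in 26m_OHC, as *Ifitm3* was, but the order of the other groups varied. *Oasl2*, an OAS-like gene, ran at 13.9 to 14.6 RPKM in 26m_OHC, 7.88 to 8.36 in 9m_OHC, 7.02 to 7.64 in 9m_IHC and 2.37 to 2.65 in 26m_IHC. *Bst2*, encoding tetherin, which holds budding virions at the cell surface, ran at 11.2 to 11.8, 2.93 to 4.05, 4.02 to 5.01 and 1.96 to 2.40 RPKM in the same order of groups. *Ifi35* was at 34.3 to 36.5 RPKM in 26m_OHC and within 13.0 to 15.7 RPKM in the other 12 libraries. *Trim25*, a ubiquitin ligase that activates RIG-I, was at 3.67 to 4.0 RPKM in 26m_OHC and at most 1.08 elsewhere. *Xaf1*, linked to cell death, reached 0.724 to 1.22 RPKM in 26m_OHC against at most 0.446 elsewhere, and *Mx2* 0.626 to 0.861 against at most 0.382 and 0 in 9m_OHC. All of these except *Oasl2* (0.80 ± 0.04) were called higher in 26m_OHC than in 9m_OHC, as 10 of the 13 effectors tested were (35.6% of all genes). *Xaf1* fell under the fold asked with both other scalings (0.95 and 0.15), and *Ifi35* with median ratio scaling (0.95).

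ISG15, a ubiquitin-like modifier, and USP18, the protease that removes it and restrains the receptor, rose together between the labelled ages of OHCs. *Usp18* was at 2.61, 2.51, 2.72 and 2.54 RPKM in 9m_IHC, 0.495, 0.490, 0.634 and 0.386 in 26m_IHC, 4.98, 4.74, 5.08 and 4.76 in 9m_OHC and 12.5, 11.7, 13.2 and 12.5 in 26m_OHC. No groups overlapped, and 26m_IHC was 5.18-fold below 9m_IHC (log2 -2.17 ± 0.06). *Isg15* was at 0.90, 0.635, 0.780 and 1.01 RPKM in 9m_IHC, 0.782, 0.465, 0.457 and 0.285 in 26m_IHC, 0, 0, 0 and 0.199 in 9m_OHC and 7.15, 4.80, 4.30 and 5.55 in 26m_OHC. It was detected in 1 of 4 libraries labelled 9m_OHC, by 3 reads, so its fitted rise of 5.29 ± 0.36 depends on the pseudocount. *Usp18* was the more abundant in 3 groups, and the pair overlapped in 26m_IHC. The rise of *Usp18* in libraries labelled OHC, 1.33 ± 0.04, fell under the fold asked with both other scalings.

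The class I genes did not share a pattern. *B2m*, the light chain common to all class I molecules, was at 33.2, 32.7, 33.6 and 33.7 RPKM in 9m_IHC, 16.4, 16.3, 17.3 and 16.9 in 26m_IHC, 93.1, 94.8, 97.8 and 98.5 in 9m_OHC and 178, 179, 185 and 181 in 26m_OHC. Its groups were all apart, and 26m_OHC stood 10.8-fold above 26m_IHC but only 1.88-fold above 9m_OHC, under the fold asked (0.91 ± 0.03). *H2-K1*, a class I heavy chain, was instead at 11.5, 11.4, 11.3 and 10.7 RPKM in 9m_IHC, 39.9, 39.7, 39.3 and 38.1 in 26m_IHC, 7.58, 7.07, 7.16 and 6.44 in 9m_OHC and 33.6, 33.8, 34.1 and 33.2 in 26m_OHC. It was higher at the labelled 26 months under both cell type labels, the only gene of the set called so. The difference was 3.50-fold under the label IHC (log2 1.80 ± 0.03, limma adjusted p 6.4e-07) and 4.77-fold under OHC (2.24 ± 0.04, limma adjusted p 3.6e-06). With the doubted labels exchanged, these would be differences between cell types. The age differences would then be -0.66 ± 0.05 in IHCs and -0.22 ± 0.03 in OHCs, neither called. The other heavy chain of the set, *H2-D1*, was at 35.7 to 36.7, 27.7 to 28.9, 15.4 to 15.6 and 23 to 24.9 RPKM in 9m_IHC, 26m_IHC, 9m_OHC and 26m_OHC. Neither of its age comparisons was called (-0.36 ± 0.03 and 0.63 ± 0.04).

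The loading complex differed again. *Tapbp*, encoding tapasin, which bridges class I molecules to the peptide transporter, was at 67.2, 66.1, 65.6 and 64.1 RPKM in 9m_IHC, 89.5, 92.1, 89.1 and 88.2 in 26m_IHC, 18.3, 19.2, 17.7 and 17.3 in 9m_OHC and 34.5, 32.6, 32.5 and 32.4 in 26m_OHC. Both groups labelled IHC exceeded both labelled OHC, by 3.63-fold at 9 months and 2.72-fold at 26 months. Of its windows 17.7% recur in other genes, mostly *Gm19412*, which overlaps it on the opposite strand, and reads without strand cannot be told apart between them. *Tap1*, a subunit of the peptide transporter, was at 0.840, 0.795, 0.773 and 0.846 RPKM in 9m_IHC, 0.619, 0.649, 0.654 and 0.668 in 26m_IHC, 0, 0.00868, 0 and 0 in 9m_OHC (1 read) and 1.81, 1.94, 1.70 and 1.95 in 26m_OHC. *Tap2*, the other subunit, lay within 1.07 to 1.86 RPKM in all libraries and was called in none of these comparisons, whereas *Tap1* was called higher in 26m_OHC than in 9m_OHC, 9m_IHC and 26m_IHC. *Psmb9*, which overlaps *Tap1* on the opposite strand, was at 1.29 to 1.58 RPKM in 9m_OHC, where *Tap1* had 1 read.

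Interferon-inducible GTPases, which attack the vacuoles of intracellular pathogens, were mostly high in 9m_IHC and 26m_OHC and lower in the groups whose labels are in doubt. *Irgm1*, a regulator of the family, was at 7.63, 7.54, 7.70 and 7.73 RPKM in 9m_IHC, 3.58, 3.60, 3.34 and 3.73 in 26m_IHC, 3.30, 3.40, 3.72 and 4.11 in 9m_OHC and 8.29, 7.77, 7.78 and 7.77 in 26m_OHC. *Igtp* had the same shape: 5.62, 6.13, 5.37 and 5.98 RPKM in 9m_IHC, 1.03, 1.04, 0.769 and 1.02 in 26m_IHC, 1.42, 1.67, 1.31 and 1.54 in 9m_OHC and 5.49, 5.71, 6.04 and 6.72 in 26m_OHC. Between 26m_OHC and 9m_IHC neither gene was called (0.05 ± 0.03 and 0.05 ± 0.07). *Gbp3*, a guanylate-binding protein gene, was at 0.933, 1.06, 1.02 and 0.963 RPKM in 9m_IHC, 0.0121, 0.0478, 0.106 and 0.0922 in 26m_IHC, 0.191, 0.160, 0.249 and 0.108 in 9m_OHC and 0.674, 0.534, 0.735 and 0.673 in 26m_OHC. Its fall in 26m_IHC, 15.4-fold, rested on 20 reads over the 4 libraries. *Gbp2* was in 26m_OHC at 1.33 to 1.67 RPKM, with 3 reads in 26m_IHC and 0 in both groups labelled 9 months. All 3 GTPase genes tested were lower in 26m_IHC than in 9m_IHC (18.6% of all genes), and all 4 were higher in 26m_OHC than in 9m_OHC (35.6%). The call of *Irgm1* in the OHC comparison (1.11 ± 0.08) was lost without replicate 1 of 9m_OHC (0.995) and under both other scalings (0.71 and 0.67), and that of *Gbp3* (1.44 ± 0.09) was lost with quantile normalization (0.059).

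The interferons themselves were all but missing at this depth. Of 21 ligand genes 20 were listed at 0 in all 16 libraries, *Ifnb1*, *Ifng* and every *Ifna* gene of the list included. The exception was *Ifnk*, at 2.8 to 3.84 RPKM in 9m_OHC and 1.78 to 2.57 in 26m_OHC, and at most 0.0536 in libraries labelled IHC. It was called higher in libraries labelled OHC at both labelled ages (4.98 ± 0.11 and 4.36 ± 0.13). With the doubted labels exchanged, these would be age differences, in IHCs and in OHCs. Of 10 receptor and kinase genes, all above background but for *Ifnlr1* in 9m_OHC, 4 were higher and 1 lower in 26m_OHC than in 9m_OHC. These shares were near the 35.6% higher and 14% lower of all genes. *Jak1*, the kinase common to these receptors and the most abundant in 3 of 4 groups, stayed within 16.9 to 27.9 RPKM. *Ifnlr1*, the chain specific to type III interferon, was at 2.42 to 2.71 RPKM in 26m_OHC and 0 in 9m_OHC. None of 5 interferon-inducible chemokine genes, *Cxcl10* among them, had a group mean at background, also in 26m_OHC.

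Other genes of the response were counted in the same way. Of 28 other antiviral genes tested between 26m_OHC and 9m_OHC 18 were higher and 1 lower, with a median of 1.58 on the log2 scale. In 26m_OHC 28 of the list reached background, but in 9m_OHC only 17. Genes at background only in 26m_OHC could be called higher but not lower, so this count leans that way by construction. Between 26m_IHC and 9m_IHC 2 were higher and 12 lower of 25 (median -0.95). Of all genes 35.6% were higher and 14% lower in the former comparison, and 14.1% and 18.6% in the latter. *Ifitm2*, the most abundant in 26m_OHC, was at 104 to 109 RPKM there and at 52.8 to 55.8 in 9m_OHC, just under the fold asked (0.97 ± 0.03), and *Parp9* at 3.48 to 3.63 RPKM there and 0 in 9m_OHC. Among 8 other interferon-inducible GTPase genes 7 were higher in 26m_OHC than in 9m_OHC (median 2.62), with *Iigp1* at 6.67 to 7.89 RPKM against 0.736 to 1.11. Of these GTPase genes 8 reached background in 26m_OHC and 4 in 9m_OHC, so their count leans to higher in the same way. Of 15 other class I and immunoproteasome genes 4 were higher and 1 lower (median 0.56, against 0.45 over all genes). *Psmb8*, an interferon-inducible proteasome subunit, was at 8.72 to 9.54 RPKM in 26m_OHC and 0 in 9m_OHC. The chaperone gene *Canx*, the most abundant of that list in both groups labelled OHC, was at 129.6 to 135 RPKM in 26m_OHC and 169 to 176 in 9m_OHC. Genes upstream, in the induction of interferon, gave 3 higher of 9 in the same comparison, and feedback inhibitors 2 of 6, near the 35.6% of all genes.

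MHC class II, which belongs to macrophages and other presenting cells, was measured by 7 genes whose patterns differed. *Cd74*, the invariant chain, was at 72.9 to 79.0 RPKM in 9m_OHC and 70.2 to 71.6 in 26m_OHC, against 1.18 to 1.71 in both groups labelled IHC. Of the 6 tested between 26m_OHC and 9m_OHC 2 were higher and 1 lower, against 35.6% and 14% of all genes. *H2-Aa* was the lower one (8.53 to 9.17 RPKM in 9m_OHC, 2.18 to 2.66 in 26m_OHC), and *H2-DMa* (4.90 to 5.65 and 10.4 to 11.4) and *H2-Eb1* (0 and 2.02 to 2.41) were higher. *H2-DMb1* was instead highest in 9m_IHC, at 15.4 to 16.4 RPKM against 7.95 to 11.6 in both groups labelled OHC. In 9m_OHC 10 of the 13 macrophage markers were listed at 0. The class II levels in 9m_OHC thus stood beside macrophage markers at most 0.424 summed RPKM, and those in 26m_OHC beside 1016 to 1048. *Lyz2*, the most abundant macrophage marker of 26m_OHC, was at 594 to 613 RPKM there, above every gene of the interferon set.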

How the data were processed

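RNA of hair cells picked from CBA mice was amplified and sequenced without strand information. The submitters' processing notes name CLC Genomics Workbench and the builds GRCm38 and mm10, and from the aligned reads the authors deposited one table of RPKM values per gene for 16 libraries, each column of which was used. Whole reads, recovered from the RPKM steps for 74.81% of 20986 detected genes within 0.001 reads, gave 19666190 to 31243721 reads per library. Libraries 1 with 2 and 3 with 4 of each group had a mean chi-square per gene of 1.012 to 1.085, against 2.112 to 2.708 for other pairs, and were averaged, giving n = 2 per group. At this size an exact permutation test cannot go below p = 0.333, so limma 3.58.1 (R 4.3.3) with a trended prior was fitted to log2(RPKM + 0.1) of all genes with a mean of at least 0.1 RPKM in a compared group. The fits were tested on simulated data with known fold changes. Alternatives were a pseudocount of 1 RPKM, no filter or a filter at 1 RPKM, median ratio and quantile scaling, all 4 libraries as replicates, a replicate block, 1 fit of all groups and leaving out each averaged replicate. The members and the gene lists were chosen with earlier results of these data known. Values in every library are given for the genes with the 2 highest means in each role and the called genes with the 3 largest rises and falls in each comparison, and other genes by range. Genes of other lists were limited to the most abundant and the most changed, *Cd74*, *H2-Aa*, *H2-DMa*, *H2-Eb1*, *H2-DMb1*, *Psmb9*, *Ifnlr1* and *Parp9* being named after their values were seen. Promoters came from RefSeq (GRCm38.p6). Sequence shared between genes was counted over windows of 75 bases every 25 bases of the longest transcript.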

Additional observations from a re-analysis of the deposited data

Results flagged for a closer look

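For 26 genes the age effect under the label OHC differed from that under the label IHC, by limma's interaction term over all 17056 genes tested. The log2 difference (effect in OHC minus effect in IHC) was 1.90 for *Irf1*, 2.08 for *Irf9*, 1.44 for *Stat2*, -4.74 for *Ifit1*, 2.28 for *Oasl2*, 3.43 for *Ifi27*, 1.53 for *Ifi35*, 3.02 for *Ifitm3*, 2.65 for *Bst2*, 2.26 for *Xaf1*, 1.53 for *Trim25*, 5.96 for *Isg15*, 3.50 for *Usp18*, 1.90 for *B2m*, 4.54 for *Tap1*, 4.21 for *Gbp3*, 4.41 for *Igtp* and 2.19 for *Irgm1*. In genes with a group listed at 0, where the fitted value is no bound, it was 3.73 for *Dhx58*, 6.36 for *Irf7*, 3.54 for *Ifit2*, 9.42 for *Ifit3*, 3.10 for *Mx2*, 6.87 for *Oas1a*, -1.48 for *Rsad2* and 3.82 for *Gbp2*. *Ifit1* and *Rsad2* alone of the 26 were negative. The labels 26m_IHC and 9m_OHC, which go against the hair cell markers, enter an age effect each. Both groups are subtracted in the difference, so exchanging these labels would leave it unchanged, though not the age effects themselves.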

How the results depend on the processing

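Numbers of genes called in each direction kept within 1.5 times of the reported ones with no filter, with 4 libraries as replicates and in 1 fit of all groups, and the calls of single genes were the same under these. The 11 genes lower in 26m_IHC than in 9m_IHC became 5 with a pseudocount of 1 RPKM, 7 with a filter at 1 RPKM and 6 with median ratio scaling. The 15 lower in 9m_OHC than in 9m_IHC became 5 and 6 with that pseudocount and filter, and the 4 higher became 7 with median ratios and 8 with quantiles. Genes higher in 26m_OHC also became fewer with the pseudocount: 15 instead of 22 against 9m_OHC, 16 instead of 24 against 26m_IHC and 16 instead of 21 against 9m_IHC. The 4 lower in 26m_OHC than in 26m_IHC became 2 with the pseudocount and 2 with the filter. The 0 lower in 26m_OHC than in 9m_OHC became 2 with quantile normalization. The 2 lower in 26m_OHC than in 9m_IHC became 1 with the pseudocount, the filter and both scalings. The 2 lower interactions became 1 with the pseudocount, 1 with the filter, 3 with median ratios and 6 with quantiles. A higher pseudocount and a stricter filter shrink or leave out low genes by construction, and the cause of the other changes was not tested. With median ratio scaling the log2 fold change turned to 0.19 for *Ddx58*, 0.033 for *Ifi35* and 0.070 for *Ifitm3* (26m_IHC against 9m_IHC), to -0.35 for *Tap2* (26m_OHC against 9m_OHC), to 0.26 for *Ifih1*, 0.55 for *Ddx58*, 0.55 for *Ifi35*, 0.42 for *Bst2*, 0.54 for *Xaf1*, 0.058 for *H2-K1* and 0.15 for *Tap2* (9m_OHC against 9m_IHC), and to -0.37 for *Ifih1*, -0.17 for *H2-K1* and -0.20 for *Tapbp* (interaction). With quantile normalization it turned to 0.13 for *Ddx58* (26m_IHC against 9m_IHC), -0.71 for *Ifih1* and -0.93 for *Tap2* (26m_OHC against 9m_OHC), 0.27 for *Ifih1*, 0.62 for *Ddx58*, 0.57 for *Ifi35*, 0.51 for *Bst2*, 0.80 for *Xaf1*, 0.18 for *H2-K1* and 0.12 for *Tap2* (9m_OHC against 9m_IHC), 0.12 for *H2-K1* and 0.14 for *H2-D1* (26m_OHC against 26m_IHC), and -1.16 for *Ifih1* and -0.062 for *H2-K1* (interaction). None of these was called in the reported fit, and only the interaction of *Ifih1* with quantile normalization was past the threshold after turning. Leaving out 1 averaged replicate gave 3 higher and 11 to 12 lower (26m_IHC against 9m_IHC), 21 to 22 higher (26m_OHC against 9m_OHC), 4 higher and 14 to 15 lower (9m_OHC against 9m_IHC), 24 and 4 (26m_OHC against 26m_IHC), 21 to 22 and 2 to 3 (26m_OHC against 9m_IHC) and 26 to 27 interactions. *Dhx58* and *Bst2* lost the call in the first of these, *Dhx58* without replicate 1 of either group (-0.94 and -0.96) and *Bst2* without replicate 2 of either (-0.87 and -0.91), and *Irgm1* in the third without replicate 1 of 9m_OHC (-0.95). The sign turned for *Ddx58* (-0.025 to 0.0099) and *Mx2* (-0.20 to 0.21) in the first, *Tap2* (-0.049 to 0.10) in the second and *Xaf1* (-0.23 to 0.17) in the third, and for *Tap2* in the interaction (-0.083 to 0.068). The labels do not say that replicate numbers mark a shared batch, and deviations of like-numbered replicates correlated at 0.167 to 0.351. A replicate block left all counts as reported (22 higher in 26m_OHC than in 9m_OHC, for example) and changed no call of a single gene (164 of 164).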
